A study of Mus musculus with 16 samples.

Results

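The late risers were 69 genes whose transcripts stood higher in suprachiasmatic nucleus (SCN) slices 6 h after vasoactive intestinal peptide (VIP) than in every slice collected earlier, while differing little from vehicle after 2 h. They were chosen by their measured values among the 10620 genes named on the globally normalised arrays. A gene entered when 1 of its probes had all 4 CT16 VIP values above all 12 others, a CT16 VIP mean at least 0.3 above the CT12 Veh mean, and a CT12 VIP mean within 0.2 of the CT12 Veh mean. Symbols beginning with Col, Kcn or Slc were left out beforehand, together with Id2, Gal, Nts, Tac1, Nefm, Ptx3, Ccl2, Ccl7, Ddit4l, Irs2, Lif and Il1r1, which removed 8 genes that otherwise met the rule. The 69 genes were carried by 82 probes: 58 genes by 1 probe, 9 by 2 and 2 by 3. Levels and differences are given in variance-stabilised units, a scale close to log2 for bright probes and compressed for dim ones, and a gene with several such probes is given by the brightest.

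Organotypic SCN slices from C57BL/6J pups aged 8 to 11 days were cultured for 7 days before RNA was hybridised to Illumina MouseWG-6 v2 BeadChips, 16 arrays in 4 groups of 4. The CT16 VIP group was given VIP at circadian time (CT) 10 and harvested after 6 h, and the CT12 VIP group was given it at the same time and harvested after 2 h. For CT12 Veh, vehicle replaced VIP and harvest also followed after 2 h, and the untreated CT10 group was harvested at the time of treatment. The labels give the dose of VIP as 1 µM, whereas the methods state a higher one, and the series text places the collection of the 6 h slices at CT12, whereas the labels and methods place it at CT16. No vehicle slices of CT16 were analysed here, so time after VIP and circadian time cannot be told apart in any value at 6 h. Separate animals are not stated for the replicate slices in the sources used here, and p-values then measure only the spread between these slices.

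VIP is released by neurons of the SCN core and acts through the receptor VPAC2, which raises cyclic AMP and engages kinase cascades, among them ERK1/2. Genes that such signals switch on directly, the immediate early genes, respond fast and transiently, and a later set of genes is read out by transcription factors and secreted factors that the first set supplies. Cytokines of the interleukin-6 family, such as oncostatin M, act through the transcription factor STAT3. TAZ and its DNA-binding partners of the TEAD family pass on mechanical and growth signals, and transforming growth factor beta (TGF-beta) signals through SMAD proteins. These pathways order the account of the late risers.

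The arrays were not alike in how many probes stood above background. Between 8019 and 16923 probes were detected per array (detection p of 0.01 or less), both extremes being CT16 VIP slices, and CT16 VIP 3 and 4, CT12 VIP 1 and CT12 Veh 1 had fewer than 10000. The late risers detected numbered 69, 64, 58 and 55 on CT16 VIP arrays 1 to 4. Their mean level differed little among those arrays, at 8.59, 8.56, 8.53 and 8.55, against 8.12 to 8.16 in CT12 VIP, 8.08 to 8.10 in CT12 Veh and 8.08 to 8.11 in CT10 slices. Since the rule requires all 4 CT16 VIP values on top, no array could enter a gene alone, and arrays 1 to 4 held the highest of the 4 values for 21, 15, 12 and 21 genes. Of 12 neuron markers, 9 or 10 were detected on every array of a group, and of 16 SCN markers 8 to 11, while Six6 was detected on no array of the CT12 Veh, CT12 VIP and CT16 VIP groups. The summed level of 11 astrocyte markers was 104.1 to 104.4 in CT16 VIP and 105.9 to 106.9 in CT12 Veh slices, with 1 of 11 higher at 6 h and none passing the test. That of 9 microglial markers was 69.0 to 70.2 in CT16 VIP and 70.3 to 71.3 in CT12 Veh slices, with P2ry12 called lower. That of 10 ependymal markers was 78.2 to 81.0 in CT16 VIP and 81.1 to 83.4 in CT12 Veh slices, with Tmem212 called lower. CT12 Veh had the highest sums, since these markers came to 79.8 to 80.1 in CT12 VIP and 79.1 to 81.5 in CT10 slices, with 5 of 10 called lower in CT12 VIP vs. CT12 Veh and all 10 above 0 in CT12 Veh vs. CT10 (median 0.40, none called). The 3 endothelial and mural markers measured (Cldn5, Rgs5 and Kcnj8) summed to 22.7 to 23.0 in CT16 VIP, overlapping the 22.3 to 22.9 of CT12 Veh slices, and to 22.2 to 22.5 in CT12 VIP slices, where all 3 were below detection on every array. The part of these shifts in the results was not tested, and in bulk slices fewer cells of a type and less RNA per cell cannot be told apart.

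Promoters were available for 54 of the 69 genes in a RefSeq table of build GRCm38.p6, which gives 250 bases before to 50 after each transcript start, 71 promoters in all. Those not matched were Cd24a, Cebpd, Eftud2, Etf1, Gas7, Id1, Mib1, Plec, Pmepa1, Ppp3ca, Ptpn12, Rnf125, Sh2d5, Tead1 and Thbd. The E-box CACGTG, the element read by CLOCK and BMAL1, was found in 9 of 71 promoters (12.7%, against 7.15% of the 32851 promoters in the table). The full cyclic AMP response element (CRE) TGACGTCA was in 0 of 71 (1.79% of all), and its core TGACG, which any full CRE also contains, in 25 (35.2% against 20.8%). The AP-1 site TGANTCA was in 4 (5.63% against 7.81%), the D-box TTATGTAA or TTACGTAA in 0 (1.06%), and the core of the glucocorticoid response element, TGTTCT, in 8 (11.3% against 19.0%). All motifs were searched on both strands, and no test was made of these shares. Of the 27 late risers chosen by size or list membership to be described in full, the promoters that hold an E-box or an AP-1 site are shown, 5′ to 3′ along the gene, with E-boxes, AP-1 sites and CRE cores in capitals.
Tuba8, chr6:121210484-121210783, + strand: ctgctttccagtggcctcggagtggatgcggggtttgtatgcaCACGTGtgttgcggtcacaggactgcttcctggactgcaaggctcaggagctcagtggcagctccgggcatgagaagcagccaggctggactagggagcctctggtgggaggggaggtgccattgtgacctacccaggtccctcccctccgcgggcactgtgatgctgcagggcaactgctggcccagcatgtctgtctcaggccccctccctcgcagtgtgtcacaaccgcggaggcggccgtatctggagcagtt
Tgfb2, chr1:186705940-186706239, - strand: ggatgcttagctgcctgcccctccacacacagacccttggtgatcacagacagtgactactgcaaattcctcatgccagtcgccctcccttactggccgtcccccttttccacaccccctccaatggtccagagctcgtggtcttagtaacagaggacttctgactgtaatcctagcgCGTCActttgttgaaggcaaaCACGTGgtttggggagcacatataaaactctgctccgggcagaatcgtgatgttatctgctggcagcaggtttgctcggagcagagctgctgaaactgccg
Eif4a1, chr11:69672374-69672673, - strand: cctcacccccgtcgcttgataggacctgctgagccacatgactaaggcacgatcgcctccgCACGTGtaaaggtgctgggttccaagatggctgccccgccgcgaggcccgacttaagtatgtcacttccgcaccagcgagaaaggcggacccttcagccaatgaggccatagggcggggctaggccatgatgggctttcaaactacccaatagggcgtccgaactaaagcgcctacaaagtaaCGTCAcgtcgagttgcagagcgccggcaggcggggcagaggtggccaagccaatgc
Osmr, chr15:6874264-6874563, - strand: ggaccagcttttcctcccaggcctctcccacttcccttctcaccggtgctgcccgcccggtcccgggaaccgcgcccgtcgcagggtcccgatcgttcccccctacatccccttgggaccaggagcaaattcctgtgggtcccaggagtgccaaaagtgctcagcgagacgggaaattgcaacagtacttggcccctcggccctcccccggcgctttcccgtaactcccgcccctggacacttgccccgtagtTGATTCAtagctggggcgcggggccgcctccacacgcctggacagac
Rorb, chr19:19001068-19001367, - strand: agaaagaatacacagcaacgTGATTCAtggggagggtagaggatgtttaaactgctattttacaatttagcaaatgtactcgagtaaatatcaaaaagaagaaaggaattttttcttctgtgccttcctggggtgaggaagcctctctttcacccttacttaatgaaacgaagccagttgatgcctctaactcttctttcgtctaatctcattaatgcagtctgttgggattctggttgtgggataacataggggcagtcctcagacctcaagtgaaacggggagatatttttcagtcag
Tuba8, Tgfb2 and Eif4a1 each carry an E-box, Eif4a1 together with a CRE core downstream of it and Tgfb2 with one upstream. Osmr and Rorb carry the same heptamer, TGATTCA, which matches the pattern TGANTCA searched for. The Rorb promoter shown is 1 of its 2 in the table, and the other holds none of the motifs.

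As the rule requires, all 69 genes were higher in CT16 VIP than in CT12 Veh slices. The difference ranged between 0.303 and 0.923 with a median of 0.43, and was 0.5 or more for 21 genes and 0.7 or more for 6 (Cd44, Gjb2, Wwtr1, Tuba8, Lrtm2 and Cebpd). Relative to CT12 VIP slices the difference was 0.18 to 0.81, median 0.37. Over all probes the medians of these 2 differences were -0.0017 and 0.0016. After background correction of the raw signals with neqc, which does not compress dim probes, the difference between CT16 VIP and CT12 Veh slices was 0.40 to 2.60 log2 units, median 0.91. The lowest CT16 VIP value cleared the highest of the other 12 by as little as 0.0015 (AA467197) and by as much as 0.57 (Cd44), with a median of 0.11. The SD within the CT16 VIP group had a median of 0.12. A limma fit of the pairwise values called 49 of 69 higher in CT16 VIP than in CT12 VIP slices, against 0.832% of all probes, and a fit of neqc values called 47 of 69 higher in CT16 VIP than in CT12 Veh slices, against 1.46%. Both contrasts chose the members, so these counts describe the selection and carry no further weight. With each array left out in turn the first count lay between 27 (without CT12 VIP 4) and 47, and the second between 17 (without CT12 Veh 4) and 47. By the probe that represents each gene, the CT16 VIP arrays detected 53 of the 69 genes on all 4, and 39 genes were detected on all 16 arrays. By that probe, 11 were detected on no array outside CT16 VIP and so passed the filter through that group alone. Among these 11, Gjb2, S1pr3 and Uck2 had another probe that was also detected on earlier arrays.

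**Figure D1:**
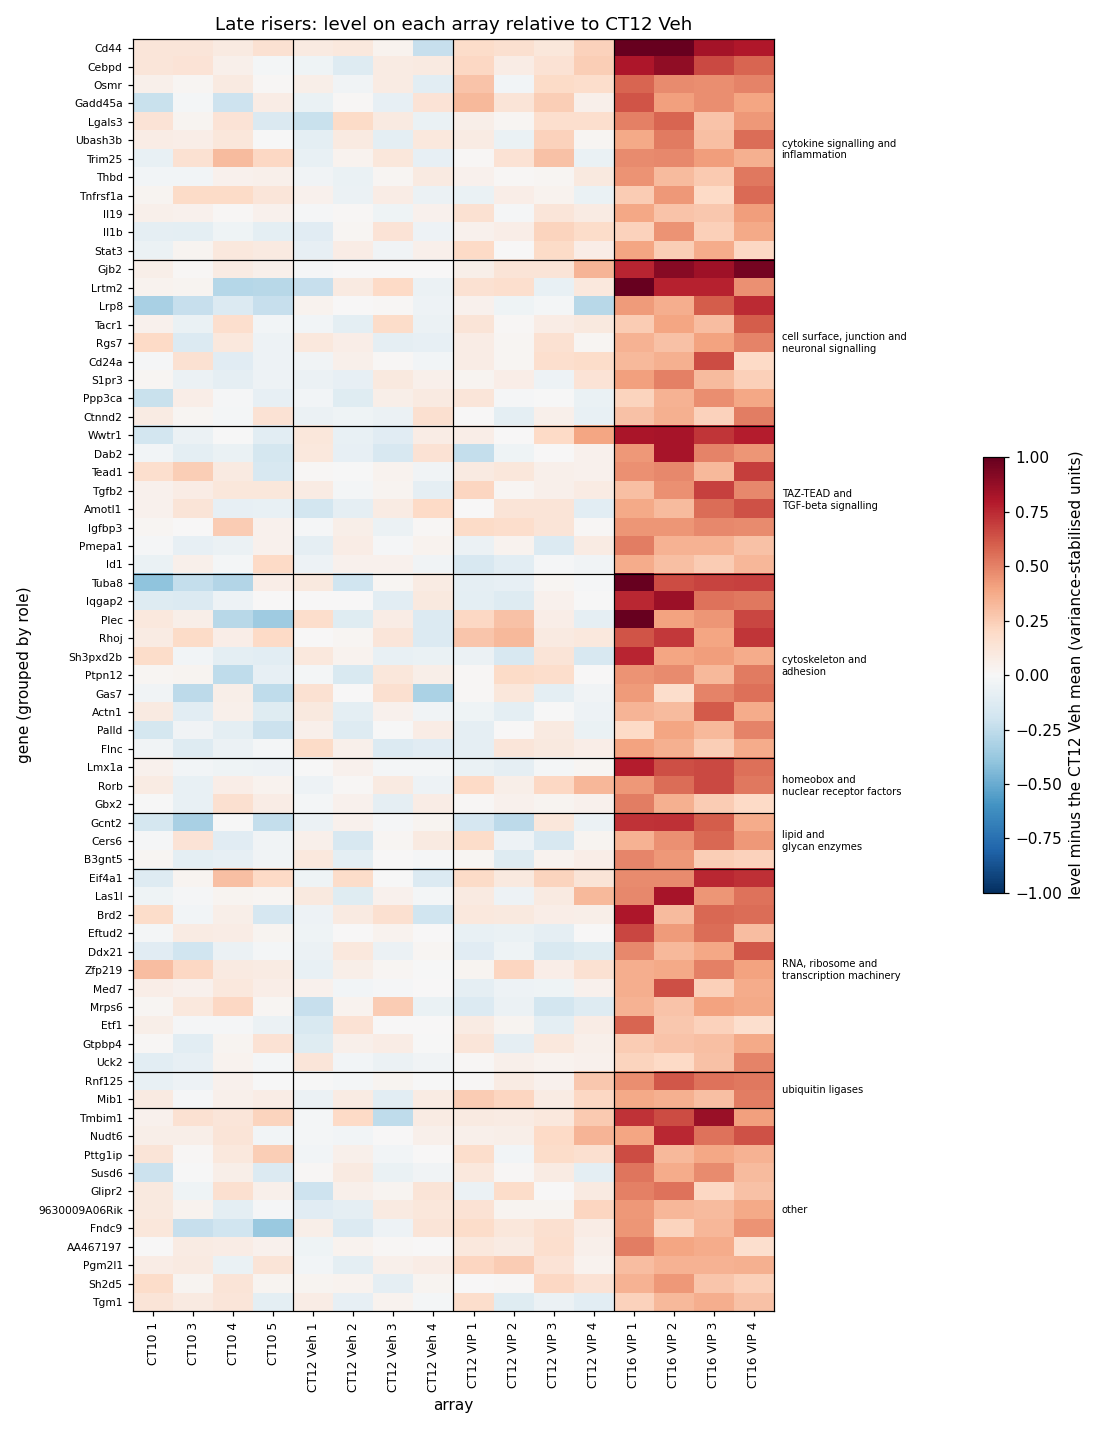
Level of the 69 late risers (rows, grouped by role and ordered by size within a group) on the 16 arrays (columns), as the difference from each gene's CT12 Veh mean in variance-stabilised units, red higher and blue lower, with the scale ending at 1 unit each way. The 4 CT16 VIP columns are red throughout, by selection, and the 12 columns to their left are pale.

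The thresholds passed through a continuum of values. Just inside the minimum at 6 h were Tgm1 (0.303), Uck2 (0.304) and Gtpbp4 (0.305), and just outside were Leo1 (0.297), Gadd45g (0.293) and Nt5e (0.292). At the upper limit for 2 h, Rhoj (0.199), Rorb (0.197) and Mib1 (0.189) lay inside, and Timp1 (0.204), a second probe of Tmbim1 (0.205) and Ttc9 (0.207) outside. On the lower side the members closest to the limit were Mrps6 (-0.126), Ddx21 (-0.107) and Gcnt2 (-0.094). A further 51 genes met the same ordering and size at 6 h but stood over 0.2 higher in CT12 VIP than in CT12 Veh slices, and 2 stood over 0.2 lower. Of these 51 genes, 9 were also among the late risers through another probe.

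The genes were sorted by known role after their values were seen, so group sizes carry no test. Genes of cytokine signalling, inflammation and stress numbered 12, at 0.31 to 0.92 above CT12 Veh. Cd44, the receptor for hyaluronan, read 8.08, 8.09, 8.06 and 8.12 in CT10, 8.06, 8.07, 8.0 and 7.74 in CT12 Veh, 8.15, 8.13, 8.08 and 8.19 in CT12 VIP, and 9.0, 8.99, 8.80 and 8.76 in CT16 VIP slices. Its CT16 VIP values lay well clear of the rest, and its CT12 VIP values, though close to them, lay above all 4 CT12 Veh values. Cebpd, a transcription factor of the acute phase response, read 8.02, 8.04, 7.95 and 7.88 in CT10, 7.86, 7.77, 7.98 and 7.99 in CT12 Veh, 8.11, 7.97, 8.05 and 8.15 in CT12 VIP, and 8.71, 8.78, 8.56 and 8.49 in CT16 VIP slices. Here the CT12 VIP values overlapped those of CT12 Veh. Osmr, the receptor subunit for oncostatin M whose promoter is shown, read 7.54, 7.51, 7.57 and 7.50 in CT10, 7.54, 7.45, 7.57 and 7.38 in CT12 Veh, 7.77, 7.46, 7.68 and 7.66 in CT12 VIP, and 8.07, 7.96, 7.96 and 7.98 in CT16 VIP slices. This probe was detected on all 4 CT16 VIP arrays, 2 of the CT12 VIP arrays and none of the others. A dimmer Osmr probe was higher at 2 h than later, 0.29 above CT12 Veh at 2 h and 0.14 at 6 h. It was detected on 3 CT12 VIP arrays and 1 CT16 VIP array. Stat3 itself stood near the edge of the rule on its member probe, at 7.83 to 8.02 in CT16 VIP and 7.54 to 7.82 on the other arrays. Gadd45a, a growth arrest and DNA damage gene, read 8.68 to 8.92 in CT16 VIP and 8.07 to 8.61 on the other arrays, and 0.189 of its 0.48 was present at 2 h.

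The remaining members of this group were smaller or dim. Lgals3 (galectin-3) stood 0.45 above CT12 Veh, Ubash3b, a protein tyrosine phosphatase, 0.44, Trim25, a ubiquitin ligase of antiviral signalling, 0.43, and the tumour necrosis factor receptor Tnfrsf1a 0.36. The cytokines Il1b (0.33) and Il19 (0.34) and thrombomodulin (Thbd, 0.39) were detected on 2, 1 and 1 of the 4 CT16 VIP arrays. Their levels rest on signals near background. Beside them, 2 of 8 microglial markers lay above 0 in CT16 VIP vs. CT12 Veh, with a median of -0.31, and their part in these values was not tested.

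Of the genes of a list of STAT3 and acute phase genes, 23 were measured in CT16 VIP vs. CT12 VIP, each by its brightest probe. limma called 5 higher and 0 lower (Cebpd, Cd44, Stat3, Bcl6 and Osmr), with a list median of 0.16 against 0.0016 over all probes, of which 0.832% were called higher. Of the 5, all but Bcl6 are late risers, and selection on CT16 VIP values made such genes likely to be called. For Stat3 and Cebpd, however, the brightest probe is not the member probe but one that missed the rule, over 0.2 above CT12 Veh at 2 h. By normalised level, a Cd44 probe that missed the rule was also brighter than the member probe (mean 8.36 against 8.27). It stood 0.21 above CT12 Veh at 2 h. Bcl6, a transcriptional repressor and no late riser, was higher in CT16 VIP than in CT12 VIP slices by 0.43 ± 0.07 (SE, limma adjusted p = 0.0035) whereas CT12 VIP minus CT12 Veh was -0.27 ± 0.07 (adjusted p = 0.027). Both Bcl6 differences share the CT12 VIP arrays, and Bcl6 was not called in CT16 VIP vs. CT12 Veh. In CT12 VIP vs. CT12 Veh, 480 of all 17605 probes tested were called higher and 258 lower. In the list, Bcl6 was the 1 gene called lower there, and 5 of 21 were called higher (Socs3, Cebpb, Fgl2, Stat3 and Cebpd). Socs3, the feedback inhibitor of STAT3, was the largest of these at 1.03 ± 0.09 (adjusted p = 3.3e-07). After 6 h, Socs3 was not called relative to CT12 VIP, at -0.25 ± 0.07 (adjusted p = 0.13). Against CT12 Veh, on neqc values, 7 of 23 were called higher at 6 h and 0 lower, with a median of 0.35 against -0.025 over all probes, of which 1.46% were called higher. Of the 7, Osmr, Cebpd, Cd44 and Stat3 are late risers, which this contrast helped to choose, and Socs3, Fgl2 and Steap4 are not. Cebpd and Stat3 were again represented by their brighter probes that missed the rule, and the limit given for Cd44 applies here too.

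**Figure D2:**
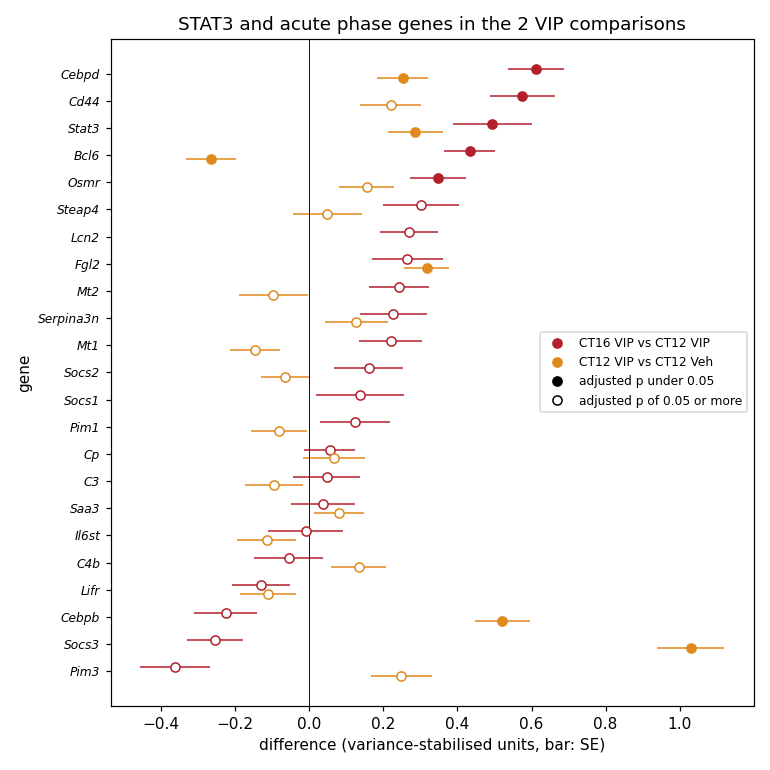
Differences of the STAT3 and acute phase genes (rows) in CT16 VIP vs. CT12 VIP (red) and CT12 VIP vs. CT12 Veh (orange), in variance-stabilised units with SE bars, by the brightest probe of each gene and each pair normalised on its own. Filled points passed an adjusted p of 0.05, which Cebpd and Stat3 did in both comparisons with the same direction, and Bcl6 with opposite directions.

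Genes of TAZ-TEAD and TGF-beta signalling contributed 8 members, at 0.31 to 0.79 above CT12 Veh. Wwtr1, which encodes the coactivator TAZ, read 8.29, 8.42, 8.47 and 8.37 in CT10, 8.59, 8.40, 8.37 and 8.55 in CT12 Veh, 8.54, 8.48, 8.67 and 8.87 in CT12 VIP, and 9.29, 9.30, 9.19 and 9.26 in CT16 VIP slices. It met the rule by all 3 of its probes, and its CT16 VIP values varied less (SD 0.05) than its CT12 VIP values (SD 0.17). Tead1, the DNA-binding partner of TAZ, read 8.46, 8.54, 8.38 and 8.13 in CT10, 8.30, 8.29, 8.32 and 8.25 in CT12 Veh, 8.38, 8.41, 8.34 and 8.34 in CT12 VIP, and 8.75, 8.77, 8.62 and 8.98 in CT16 VIP slices. Its 2 h values were all above CT12 Veh but within the CT10 range. Tead1 met the rule by 1 probe only, and its other probes overlapped the earlier groups, at 0.072 and 0.090 above CT12 Veh at 6 h. Amotl1, an angiomotin family protein that binds YAP and TAZ, stood 0.47 above CT12 Veh. Genes of the same Hippo pathway picked after these values were seen did not share the ordering: of 9 measured, 5 were higher and 4 lower at 6 h, none had all CT16 VIP values on top, and only 1 was detected on all 4 CT16 VIP arrays. Yap1 was at 0.11, and the TAZ targets Ccn1 and Ccn2 at 0.19 and -0.0088. Ccn1 was higher at 2 h than later, 0.29 above CT12 Veh, and Ccn2 was detected on no CT16 VIP array.

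Tgfb2, a TGF-beta ligand, read 8.52, 8.68, 8.90 and 8.70 in CT16 VIP slices and 8.14 to 8.44 on the other 12 arrays. Dab2, an endocytic adaptor that also binds SMAD proteins, read 8.87 to 9.26 in CT16 VIP slices and 8.20 to 8.58 elsewhere. Its CT12 VIP minus CT12 Veh was -0.060, and 0.064 by its second member probe. Id1, a target of bone morphogenetic protein signals, read 7.73 to 7.86 in CT16 VIP slices and 7.32 to 7.68 elsewhere, and was detected on 2 CT16 VIP arrays and no other. Pmepa1, a TGF-beta-induced inhibitor of the pathway, stood 0.38 and Igfbp3, an insulin-like growth factor binding protein, 0.46 above CT12 Veh. Of 26 genes of a TGF-beta and BMP list measured in CT16 VIP vs. CT12 VIP, 2 were called higher and 0 lower, with a median of 0.015. Both, Id1 and Tgfb2, are late risers, so these calls follow from the selection, and 0.832% of all probes were called higher.

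The cytoskeleton and adhesion group held 10 genes, all detected on the 4 CT16 VIP arrays. By the probe that represents each gene, 6 of the 10 lay below CT12 Veh at 2 h. Second member probes of Tuba8 and Gas7, which are among the 6, lay above it, at 0.101 and 0.063. Tuba8, an alpha-tubulin, read 7.89, 8.04, 7.99 and 8.35 in CT10, 8.38, 8.08, 8.31 and 8.37 in CT12 Veh, 8.19, 8.20, 8.31 and 8.27 in CT12 VIP, and 9.35, 8.94, 8.96 and 8.97 in CT16 VIP slices. Its difference from CT12 VIP, 0.81, was the largest of the 69, and its CT12 VIP minus CT12 Veh was -0.041. Iqgap2, a scaffold for Rac1 and Cdc42, read 8.35 to 8.68 in CT16 VIP slices and 7.68 to 7.92 elsewhere. Plec, which encodes the linker plectin, read 9.03, 8.43, 8.47 and 8.69 in CT16 VIP slices and 7.67 to 8.32 elsewhere, the widest spread at 6 h of any late riser (SD 0.27). Rhoj read 8.44 to 8.76 in CT16 VIP slices and 7.91 to 8.38 elsewhere, and Sh3pxd2b, an invadopodia adaptor, 8.63 to 9.02 in CT16 VIP slices and 8.10 to 8.44 elsewhere. Ptpn12, Gas7, Actn1, Palld and Flnc stood 0.34 to 0.44 above CT12 Veh. Of 22 intermediate filament and tubulin genes, 2 were called higher in CT16 VIP than in CT12 VIP slices and 0 lower, against 0.832% of all probes called higher. They were Tuba8, which was selected on these values, and Tuba1c, which was no late riser (0.54 ± 0.10, SE, limma adjusted p = 0.013).

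Among genes of the cell surface, junctions and neuronal signalling, Gjb2 (connexin 26, a gap junction subunit) read 7.26, 7.22, 7.29 and 7.26 in CT10, 7.20, 7.21, 7.22 and 7.21 in CT12 Veh, 7.27, 7.34, 7.34 and 7.55 in CT12 VIP, and 7.98, 8.12, 8.06 and 8.17 in CT16 VIP slices. This probe was detected on the CT16 VIP arrays alone, so its values elsewhere are not above background. Lrtm2, a leucine-rich repeat membrane protein, was the brightest of the 6 genes at 0.7 or more, at 9.30, 9.30, 8.98 and 8.99 in CT10, 9.04, 9.35, 9.47 and 9.21 in CT12 Veh, 9.42, 9.43, 9.19 and 9.38 in CT12 VIP, and 10.32, 10.04, 10.04 and 9.73 in CT16 VIP slices. Lrp8, a reelin and apolipoprotein E receptor, read 9.17 to 9.56 in CT16 VIP slices and 8.48 to 8.85 elsewhere. The substance P receptor Tacr1 (0.39), the sphingosine 1-phosphate receptor S1pr3 (0.37), the G protein regulator Rgs7 (0.38), Cd24a (0.38), delta-catenin Ctnnd2 (0.35) and the calcineurin subunit Ppp3ca (0.35) completed the group. The member probes of Tacr1 and S1pr3 were detected on no array outside CT16 VIP, where they reached 3 and 2 arrays. Another S1pr3 probe was detected on all 4 CT12 VIP arrays and 1 CT12 Veh array.

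Rorb, an orphan nuclear receptor enriched in the SCN, read 7.77, 7.62, 7.76 and 7.72 in CT10, 7.64, 7.70, 7.78 and 7.64 in CT12 Veh, 7.89, 7.75, 7.89 and 8.02 in CT12 VIP, and 8.13, 8.25, 8.35 and 8.22 in CT16 VIP slices. Its CT12 VIP values overlapped those of CT12 Veh and CT10, while their mean lay 0.197 above CT12 Veh, just inside the limit of the rule. The homeobox factors Lmx1a (7.90 to 8.14 in CT16 VIP slices, 7.26 to 7.39 elsewhere) and Gbx2 (7.45 to 7.76 in CT16 VIP slices, 7.16 to 7.41 elsewhere) were detected only on CT16 VIP arrays, 3 and 1 of them. No other gene of the clock list was among the 69. Of 17 clock genes measured in CT16 VIP vs. CT12 VIP, 0 were called higher and 2 lower, Nr1d2 at -0.47 ± 0.08 and Dbp at -0.45 ± 0.06 (SE, limma adjusted p = 0.0079 and 0.0013). Over all 19110 probes tested there, 183 were called lower. Both genes oscillate with circadian time, which also differs between these groups. Dbp was also called lower in CT12 VIP vs. CT12 Veh, where both groups were harvested at CT12. In that comparison 5 of 18 clock genes were called higher, among them Rorb by a brighter probe, and 2 lower, Dbp and Tef. Over all 17605 probes tested, 480 were called higher and 258 lower.

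RNA, ribosome and transcription machinery gave 11 members, 10 of them detected on all 4 CT16 VIP arrays. Eif4a1, the helicase of the cap-binding complex, read 9.60, 9.75, 10.02 and 9.93 in CT10, 9.68, 9.91, 9.72 and 9.59 in CT12 Veh, 9.92, 9.83, 9.95 and 9.86 in CT12 VIP, and 10.20, 10.20, 10.48 and 10.45 in CT16 VIP slices. Brd2, a bromodomain reader of acetylated histones, read 9.38 to 9.87 in CT16 VIP slices and 8.86 to 9.25 elsewhere, and Las1l, a factor of ribosomal RNA processing, 8.57 to 8.96 in CT16 VIP slices and 8.02 to 8.46 elsewhere. Eftud2, a spliceosomal GTPase, read 8.60 to 8.96 in CT16 VIP slices and 8.20 to 8.37 elsewhere. Ddx21, a nucleolar helicase, read 8.01, 7.93, 8.06 and 8.10 in CT10, 8.06, 8.23, 8.06 and 8.14 in CT12 Veh, 8.01, 8.08, 7.97 and 8.0 in CT12 VIP, and 8.60, 8.45, 8.51 and 8.75 in CT16 VIP slices, with a CT12 VIP minus CT12 Veh of -0.107. Zfp219, Med7, Mrps6, Etf1, Gtpbp4 and Uck2 stood 0.30 to 0.41 above CT12 Veh. Of 23 ribosome biogenesis genes, 22 lay above 0 in CT16 VIP vs. CT12 VIP, with a median of 0.12 against 0.0016 over all probes, but only Mybbp1a passed the test (0.44 ± 0.08, SE, limma adjusted p = 0.0073) and Ddx21 by its brightest probe did not (0.30 ± 0.11, adjusted p = 0.27). At 2 h, 1 of 20 of these genes lay above CT12 Veh, with a median of -0.081 and no call. These counts share the CT12 VIP arrays, and in CT16 VIP vs. CT12 Veh 16 of 23 lay above 0, with a median of 0.15 on neqc values and no call. Over all probes, 0.832% were called higher in CT16 VIP vs. CT12 VIP.

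Enzymes of glycan and lipid synthesis gave 3 members. Gcnt2, which branches poly-N-acetyllactosamine chains, read 8.33, 8.18, 8.51 and 8.27 in CT10, 8.45, 8.55, 8.50 and 8.53 in CT12 Veh, 8.34, 8.24, 8.62 and 8.45 in CT12 VIP, and 9.23, 9.24, 9.12 and 8.88 in CT16 VIP slices. The ceramide synthase Cers6 stood 0.45 and the lactosylceramide-extending enzyme B3gnt5 0.35 above CT12 Veh, and their CT12 VIP minus CT12 Veh was 0.00016 and -0.0014. B3gnt5 was detected on 2 CT16 VIP arrays and no other, so its 2 h difference is between signals near background. At 2 h the second member probe of Cers6 stood 0.011 above CT12 Veh, and a brighter Cers6 probe that missed the rule 0.16. The ubiquitin ligases were Rnf125 (0.54, detected on 3 CT16 VIP arrays) and Mib1 (0.39), which acts on Notch ligands. The other 11 genes included Tmbim1, a transmembrane protein (9.10 to 9.56 in CT16 VIP slices, 8.43 to 8.95 elsewhere) and Nudt6, a nudix hydrolase (8.14 to 8.50 in CT16 VIP slices, 7.71 to 8.08 elsewhere), and the rest stood 0.30 to 0.43 above CT12 Veh.

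**Figure D3:**
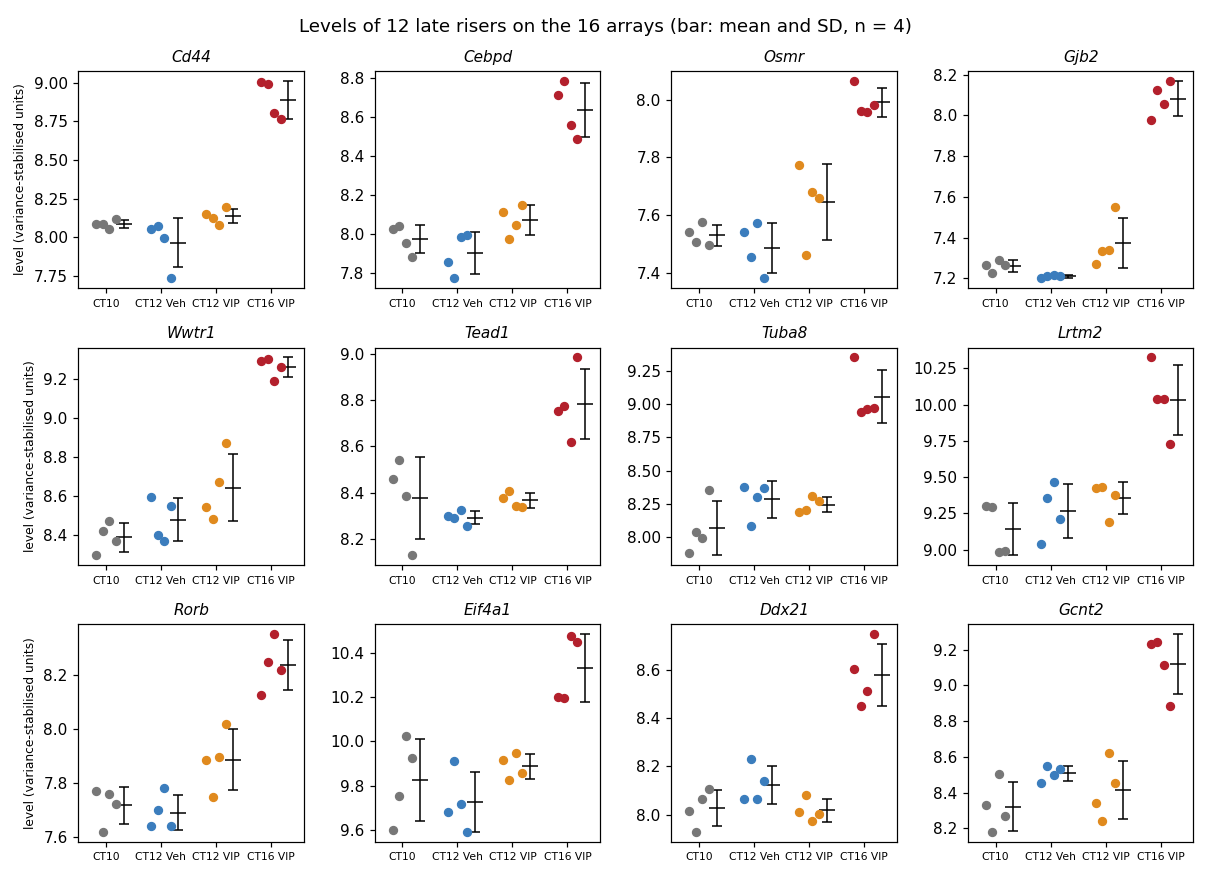
Level of 12 late risers, 1 per panel, on each array of the 4 groups, in variance-stabilised units, with points for arrays and bars for mean and SD (n = 4); axes differ between panels and do not start at 0. In each panel the 4 CT16 VIP points lie above the other 12, and in Rorb the CT12 VIP points come closest to them.

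The rule holds the difference at 2 h within 0.2, and inside that window most late risers lay above vehicle. CT12 VIP minus CT12 Veh ranged between -0.126 and 0.199 with a median of 0.075, and 49 of 69 genes lay above 0, whereas 46.3% of all probes did. The part of the 6 h difference already present at 2 h was between -35.4% and 48.9%, median 15.3%. All 4 CT12 VIP values lay above all 4 CT12 Veh values for 5 genes (Cd44, Gjb2, Tead1, Mib1 and AA467197), against 4.58% of all probes, and none lay wholly below. limma called 0 of the 57 late risers that passed the detection filter in CT12 VIP vs. CT12 Veh, where 2.73% of all probes were called higher. At an unadjusted p under 0.05, 9 were higher (15.8%, against 7.45% of all probes) and 0 lower (7.75% of all probes). The rule used this contrast, so nothing is read from these counts.

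Whether a gene counted as flat at 2 h depended on the probe and on the scale. Of the 69 genes, 32 had a further 56 probes that did not meet the rule, and 37 had none. Of the 56, 52 were higher in CT16 VIP than in CT12 Veh slices, with a median of 0.23, and the 26 detected on all 4 CT16 VIP arrays were all higher, with a median of 0.42. The 4 that were lower belonged to Palld (1) and Plec (3). However, 12 of these probes, from 10 genes, stood over 0.2 above CT12 Veh at 2 h. For 9 genes (Cd44, Cebpd, Gjb2, Igfbp3, Rorb, S1pr3, Stat3, Tmbim1 and Uck2) such a probe also had all CT16 VIP values on top, so the description "up only at 6 h" does not hold for every probe of these genes. Nor does it hold for every probe of Osmr, whose other probe lacked that ordering.

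A second, brighter Gjb2 probe read 9.09, 9.17, 9.09 and 9.30 in CT16 VIP, against 7.84, 7.88, 7.78 and 8.17 in CT12 VIP and 7.44, 7.48, 7.60 and 7.40 in CT12 Veh slices, differences from vehicle of 1.68 at 6 h and 0.44 at 2 h. A second S1pr3 probe stood 0.96 above CT12 Veh at 6 h and 0.51 at 2 h, and 2 brighter Stat3 probes stood 0.59 and 0.78 above at 6 h and both 0.29 above at 2 h. Another Cd44 probe was as high at 2 h as later, 0.56 above CT12 Veh at 2 h and 0.45 at 6 h. Of the 48 other probes tested in CT12 VIP vs. CT12 Veh, 9 were called higher and 0 lower, 2 of Stat3 and 1 each of Cd44, Cebpd, Gjb2, Igfbp3, Osmr, Rorb and S1pr3. On neqc values, 66 of the 69 genes kept all CT16 VIP values above the other 12, but 29 differed from CT12 Veh by more than 0.2 at 2 h, with a median of 0.15.

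**Figure D4:**
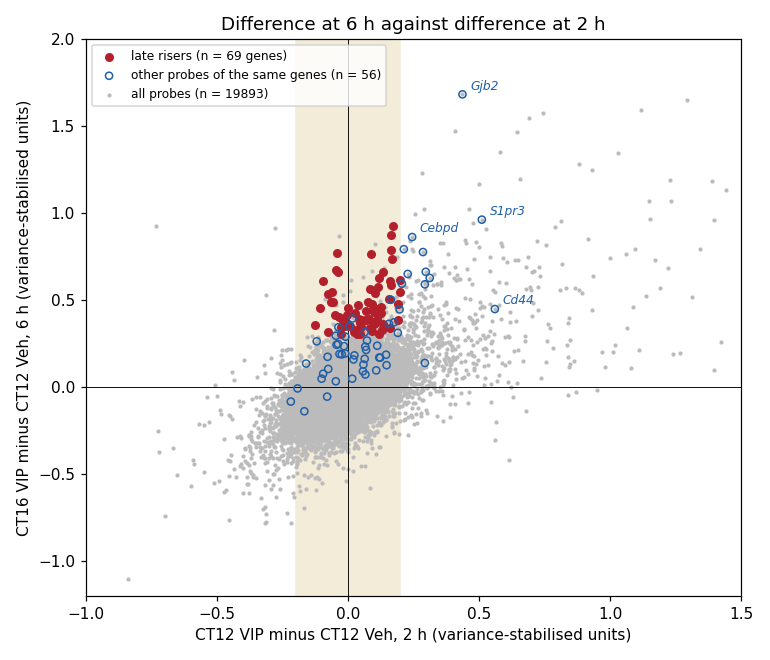
Difference from CT12 Veh at 6 h (vertical, CT16 VIP) against that at 2 h (horizontal, CT12 VIP), in variance-stabilised units, for the 69 late risers (red), the 56 other probes of the same genes (blue circles) and all 19893 probes (grey, 10 outside the axes). The red points lie in the shaded window of 0.2 either side of 0 by the rule, while blue circles of Gjb2, S1pr3, Cebpd and Cd44 lie to its right.

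The difference between vehicle and untreated slices was not set by the rule, although a low CT12 Veh level favours entry. CT12 Veh minus CT10 was -0.17 to 0.23 with a median of -0.020, and 30 genes were above 0 and 39 below, against 50% of all probes above 0. All CT12 Veh values lay above all CT10 values for 1 gene (1.9% of all probes) and below them for 3 (1.88%). limma on neqc values called 0 of the 55 late risers tested, and 0% of all probes in either direction, with a smallest adjusted p of 0.72 (Lrp8, CT12 Veh higher than CT10 by 0.23 in variance-stabilised units). At an unadjusted p under 0.05, 2 late risers were higher (3.64%, against 3.38% of all probes) and 1 lower (1.82%, against 3.33%) in CT12 Veh than in CT10 slices.

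In CT16 VIP vs. CT12 VIP, 159 of all 19110 probes tested were called higher and 183 lower. Of the other gene lists examined in this comparison, proteoglycan and matrix remodelling genes had 1 of 25 called higher and 4 lower. Late activity-regulated genes had 3 of 20 higher and 1 lower. For Notch and Wnt signalling 0 of 19 were called higher and 1 lower, and for peptide processing 1 of 19 higher and 0 lower. Cell cycle (0 of 21), glycolysis and hypoxia (0 of 23), chaperones of the endoplasmic reticulum (0 of 21) and amino acid supply (0 of 21) had no call in either direction. In CT12 Veh vs. CT10 no gene of any list was called.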

How the data were processed

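The 16 arrays were grouped by their labels. The authors deposited raw bead intensities without normalisation, with detection p-values against each array's negative controls, and log2-like normalised values. For these, probes were filtered at a detection p of 0.01, variance-stabilised and quantile-normalised in lumi, whose version is not given in the sources used here, once over all 16 arrays and once for each of 2 pairs of groups. Levels and the selection of members used the values normalised over all arrays. Members, role groups and gene lists were chosen with earlier results of these data known.

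Of 19893 probes, 16733 were named, through Entrez identifiers (13733), accessions (1254), older symbols (969) or the platform's symbols (754 current, 23 not matched). Groups were compared with limma 3.58.1 (R 4.3.3) using moderated 2-sided tests per probe on the arrays of both groups alone, no covariates, and Benjamini-Hochberg adjustment over all probes at 0.05. The pairwise values were used for CT16 VIP vs. CT12 VIP and CT12 VIP vs. CT12 Veh, and neqc values of probes detected on at least 1 array for CT16 VIP vs. CT12 Veh and CT12 Veh vs. CT10. The fits were tested on simulated data.

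Genes described individually were the 24 largest 6 h differences among members detected on all CT16 VIP arrays and members in the 21 gene lists, plus those at each threshold. List genes were represented by the brightest raw probe. Alternatives covered normalisation, detection filter, samples in the fit, replicate block, array weights, detected probes as a covariate and left-out arrays. The number of arrays limits the precision.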

Additional observations from a re-analysis of the deposited data

Results flagged for a closer look

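Within groups of 4 arrays, 1 array lay far from the other 3 in 4 of 108 groups tested among the genes described individually, with the gap to the nearest array as a share of the range above Dixon's critical value, which chance passes in about 1 group of 20. CT16 VIP 1 was high for Tuba8 (share 0.921, 9.35 against 8.97 for the nearest) and for Sh3pxd2b (0.877, 9.02 against 8.68). CT16 VIP 2 was high for Dab2 (0.852, 9.26 against 8.93), and CT12 VIP 4 was high for Tmbim1 (0.862, 8.95 against 8.79).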

How the results depend on the processing

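The rule gave 22 genes with a minimum of 0.5 at 6 h (any probe counted), 42 with a limit of 0.1 at 2 h, and 185 without the arrays under 10000 detected probes, which leaves 2 CT16 VIP arrays and kept 65 of the 69. On neqc values it gave 59 genes, 39 of them among the 69, and on log2 quantile values 72, with 50 shared. Leaving out each array gave 67 to 100. Probes without a gene name, added after seeing the data, would bring 5 more probes. Calls in CT16 VIP vs. CT12 VIP numbered 18 on neqc values, 16 without a detection filter (also neqc), 23 with the replicate block, 30 without the arrays under 10000 detected probes, and 27 to 47 with 1 array left out, at 32 or fewer without CT16 VIP 2, CT12 VIP 2, CT12 VIP 3 or CT12 VIP 4. Calls in CT16 VIP vs. CT12 Veh numbered 14 with the replicate block, 13 without those arrays, and 17 to 47 with 1 array left out, at 31 or fewer without any array but CT16 VIP 1. The causes were not tested. Same-numbered arrays shared only a number, with deviations correlating at -0.34 to 0.27, so the block is no pairing. Calls in CT12 VIP vs. CT12 Veh and CT12 Veh vs. CT10 stayed at 0 under every alternative run. The rule limits the first of these differences, so nothing is read from its count. Of 270 alternative values for 27 genes, 232 moved by less than the spread between arrays, 38 by more, and none reversed. These genes had been chosen by their values on the same arrays.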
